A study of Homo sapiens with 4 samples.

Results

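The genes described here are 37 human genes of DNA recombination, interstrand crosslink repair, mismatch repair, base excision repair and damage checkpoint signalling. They were chosen by name from the 19192 gene symbols counted in each library, and all 37 were found. Total RNA and ribosome-protected fragments (RPF, the stretches of mRNA covered by ribosomes) had been sequenced from SW480, a human colon adenocarcinoma line. The 4 libraries are IMP1-/- RNA, wild-type RNA, IMP1-/- RPF and wild-type RPF. Each library came from 3 pooled culture plates, no treatment is named, and the labels do not say how many clones of the knockout were used.

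IMP1 is the mRNA-binding protein encoded by IGF2BP1. IGF2BP1 had 571 RNA reads in the IMP1-/- library, against 598 in wild type, a log2 change of 0.08 (95% counting interval -0.08 to 0.25). It had 149 RPF reads in the IMP1-/- library, against 285 in wild type, a log2 change of -0.93 (-1.23 to -0.65). The RNA level did not go with a loss of the transcript, and whether the edited part of the gene lies in the counted part was not tested, so the libraries are called knockout-labelled throughout. For wild-type RNA the label names the cell line SW840, whereas every other label says SW480. With 1 library per group there is no replicate check: genotype, clone, culture and library cannot be told apart, and no test or p-value is given. Library totals ran from 3778316 to 5551479 reads. All 10 epithelial marker genes were counted in every library, with EPCAM at 1143 RNA reads in the knockout-labelled library and 1081 in wild type. Their summed RNA was 6244 CPM in the knockout-labelled library and 8667 CPM in wild type, and with a call at 1.5-fold whose counting interval excludes no change 3 (KRT8, KRT18 and ELF3) were lower in RNA and 3 (CDH1, CLDN7 and ESRP1) higher. Of the 10 mesenchymal markers listed, 8 were analysed. These and the 8 leukocyte markers summed to at most 31 and 22 reads in any library. The 5 endothelial markers summed to 888 RNA reads in the knockout-labelled library and 2027 in wild type, of which KDR made up 843 and 1969, and to 51 and 10 RPF reads; their part in the results was not tested.

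Homologous recombination repairs broken DNA by copying an intact sister chromatid: broken ends are cut back to single strands, mediators such as BRCA2 load a protein filament on them, and the filament invades the sister. The Fanconi anaemia pathway unhooks crosslinks between the strands at stalled replication forks and hands the resulting break to recombination. Mismatch repair removes replication errors, base excision repair removes single damaged bases, and the kinases ATM and ATR signal the damage. Many of these genes are transcribed mainly in S phase, and their loss is a classical route to genome instability in colon and other cancers.

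Promoter sequences are shown for the members whose RNA differed most and, within this set, for 1 whose RPF reads did not follow its RNA. RefSeq promoters (build GRCh38.p14, 250 bases before to 50 after the gene start) were available for 34 of the 37 members. RAD54B, NBN and FANCI were not among them. Capitals mark letters of cell-cycle promoter elements found on either strand: E2F (TTGGCGC or TTCCCGC or TTCGCGC or TTGCCGC), the NF-Y box CCAAT, the cell-cycle homology region CHR (TTTGAA or TTCGAA), the NRF1 core GCATGCG and TATAAA. The sequences run 5′ to 3′ on the gene's strand. The NEIL3 promoter lies at chr4:177309624-177309923 on the plus strand, that of RAD54L at chr1:46247438-46247737 on the plus strand, and that of FANCA at chr16:89816598-89816897 on the minus strand.
NEIL3: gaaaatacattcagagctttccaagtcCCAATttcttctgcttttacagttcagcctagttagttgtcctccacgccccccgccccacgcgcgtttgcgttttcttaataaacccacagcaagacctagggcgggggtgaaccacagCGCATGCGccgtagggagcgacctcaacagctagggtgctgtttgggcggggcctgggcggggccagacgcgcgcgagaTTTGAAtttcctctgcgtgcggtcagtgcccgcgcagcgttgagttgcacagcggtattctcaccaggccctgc
RAD54L: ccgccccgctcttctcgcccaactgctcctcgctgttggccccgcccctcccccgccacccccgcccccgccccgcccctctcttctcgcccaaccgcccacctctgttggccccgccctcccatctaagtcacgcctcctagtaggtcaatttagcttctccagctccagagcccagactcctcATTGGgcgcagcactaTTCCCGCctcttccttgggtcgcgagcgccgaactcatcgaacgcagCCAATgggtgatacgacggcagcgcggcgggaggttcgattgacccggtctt
FANCA: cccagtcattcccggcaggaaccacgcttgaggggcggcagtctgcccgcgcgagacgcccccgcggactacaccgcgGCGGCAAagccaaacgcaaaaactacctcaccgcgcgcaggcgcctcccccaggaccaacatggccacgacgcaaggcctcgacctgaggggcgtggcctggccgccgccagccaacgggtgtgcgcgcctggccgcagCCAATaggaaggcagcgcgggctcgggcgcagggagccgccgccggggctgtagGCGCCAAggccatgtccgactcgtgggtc
The NEIL3 window holds the CHR letters TTTGAA starting 24 bases upstream of the start, the NRF1 letters read on both strands in 1 palindrome 103 bases upstream, and a CCAAT box 223 bases upstream. RAD54L holds the E2F letters TTCCCGC 49 bases upstream between a pair of NF-Y boxes that start 65 and 2 bases upstream. In FANCA, E2F letters stand 172 bases upstream and 21 bases downstream of the start, with a CCAAT box 33 bases upstream. BRCA2 came next by the RNA interval bound nearest to no change. Its window is not printed and holds none of these letters. The windows of FANCG and BLM, which follow BRCA2 and are not printed either, hold E2F letters. Over all 34 member promoters, 22 (64.7%) held an E2F spelling, against 21.8% of 8309 promoters of genes measured in RNA and 13.0% of all 35116 promoters in the table. The NF-Y box was in 18 of 34 (52.9%), against 36.9% of measured genes and 34.6% of all promoters. CHR letters were in 5 (14.7%), against 10.4% and 16.4%, and the NRF1 core in 3 (8.82%), against 6.79% and 3.91%. TATAAA was in 0 of 34 windows, against 4.55% of measured genes and 11.5% of all promoters. Within the members, E2F letters were in 8 of the 15 windows of those called lower in RNA and in 14 of the 19 others. Such matches describe letters, not occupied sites.

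For each gene the RNA and RPF changes are log2 ratios, knockout-labelled over wild type, after scaling, with a prior of 0.5 reads and an exact 95% interval that covers counting error only. Equal abundance corresponds to a read ratio of 0.900 in RNA, where the knockout-labelled library is smaller, and of 1.00 in RPF. Genes with 50 reads or more in a pair of libraries were measured, which all 37 members reached in RNA and in RPF. It was called lower or higher when its ratio reached 1.5-fold and no change lay outside its interval. In RNA, 17 of the 37 members (45.9%) were called lower and 0 higher, while over all 10875 measured genes 17.8% were called lower, 16.2% higher and 34.0% either way. In RPF, 19 members (51.4%) were called lower and 0 higher, while over all 9794 measured genes 20.1% were called lower, 19.0% higher and 39.1% either way. The members' median log2 change was -0.51 in RNA, beside -0.01 over all genes, and -0.60 in RPF, beside 0.00 over all genes. With a call at 2-fold, 12 members were lower in RNA and 0 higher, where 8.35% of all genes were lower and 6.39% higher, and 8 were lower in RPF and 0 higher, where 9.87% were lower and 9.00% higher.

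BARD1, BRCA2, XRCC2, RAD54L, RAD54B, RAD50, EXO1, BLM, FANCA, FANCG, FANCM, FANCI, BRIP1 and CHEK2 were called lower in RNA and in RPF, 14 in all, where 9.53% of the 9598 genes measured in both kinds were. RAD51C, ATM and NEIL3 were called lower in RNA and not called in RPF, as were 7.39% of those genes. BRCA1, FANCE, FANCD2, CHEK1 and UNG were called lower in RPF and not called in RNA, as were 9.91%. The remaining 15 were called in neither, as were 47.1%. A difference between these classes was not tested, and several members lie close to the limits of the call. The RNA change was below 0 for 33 members and the RPF change for 31. Summed over the members, RNA reached 1212 CPM (reads scaled to a common library total) in the knockout-labelled library, against 1740 CPM in wild type, and RPF 1617 CPM, against 2248 CPM.

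**Figure D1:**
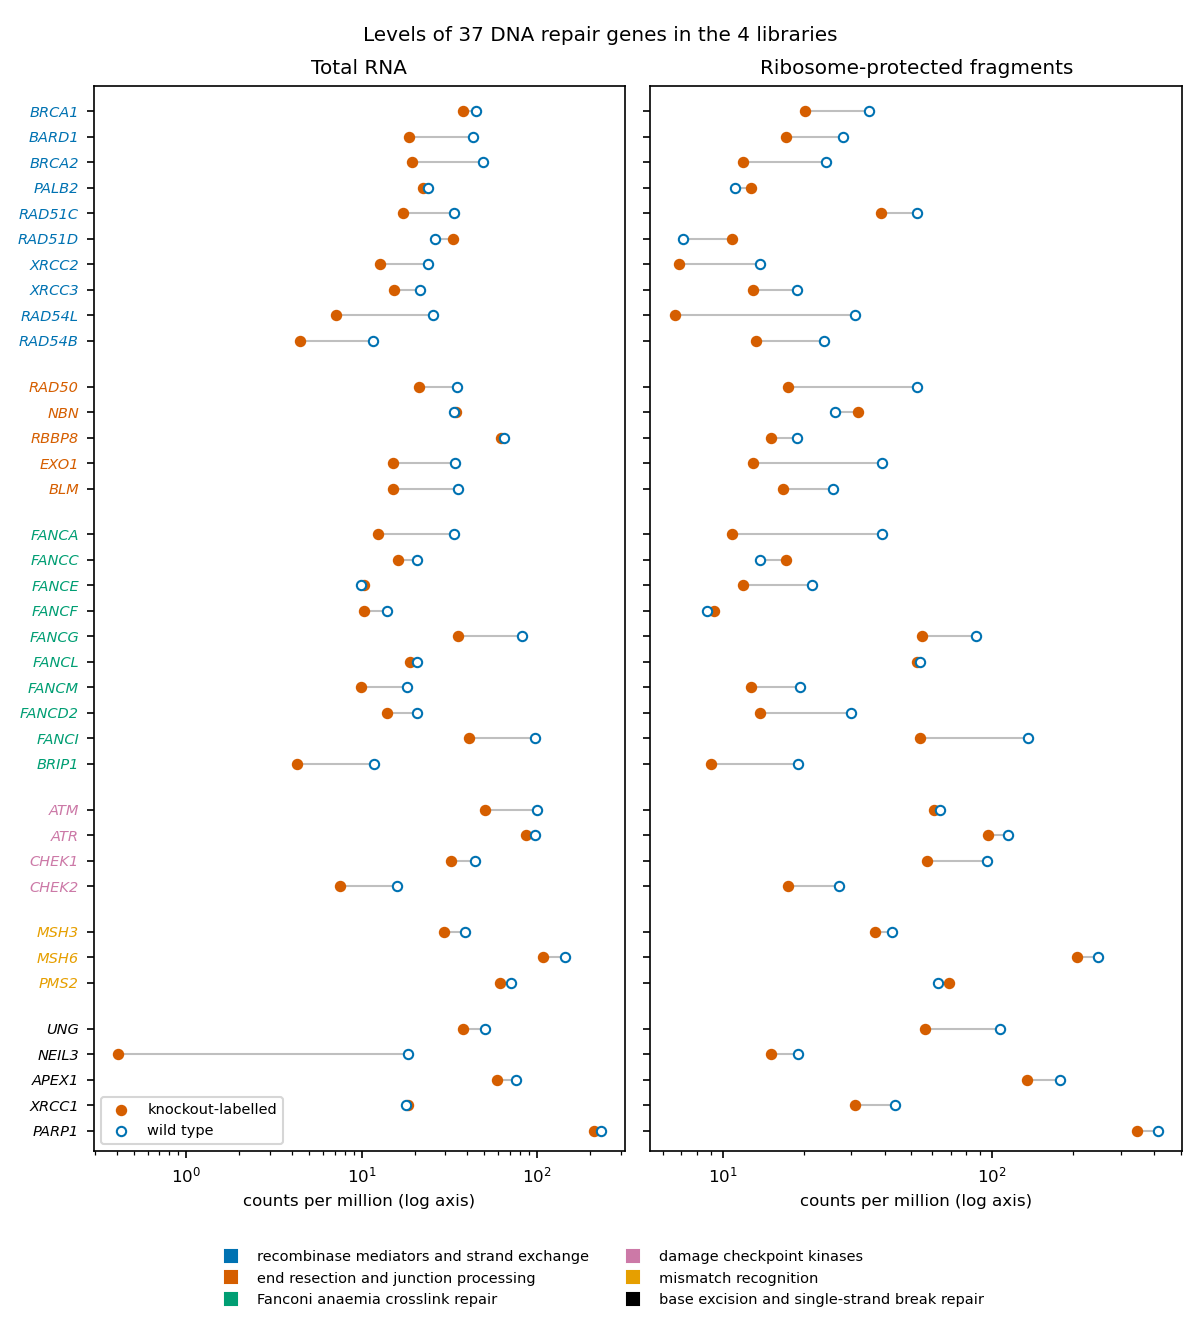
Read level of each of the 37 genes in CPM on log axes, in total RNA (left panel) and ribosome-protected fragments (right panel); filled orange points are the knockout-labelled library, open blue points wild type, 1 library each, and label colours mark the gene's role. The filled point lies to the left of the open point for most genes, and NEIL3 RNA, with 2 reads in the knockout-labelled library and 102 in wild type, has the widest gap.

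Of the 10 mediators and strand-exchange factors of recombination, 6 were called lower in RNA and 6 in RPF, with median log2 changes of -0.95 and -0.75. RAD54L, an ATP-driven translocase that helps the filament invade the sister, is the clearest case. RAD54L had 35 RNA reads in the knockout-labelled library, against 142 in wild type, and 25 RPF reads, against 117. Its log2 change was -1.85 (-2.45 to -1.33) in RNA and -2.20 (-2.91 to -1.59) in RPF, which is 3.61-fold and 4.61-fold lower. RNA and footprints of RAD54L were thus low to a similar extent. Its annotated exons share 566 bases with LRRC41 on the other strand, and LRRC41 had 227 RNA reads in the knockout-labelled library and 241 in wild type. RAD54B, the related translocase on chromosome 8, had 22 knockout-labelled against 64 wild-type RNA reads, and 50 knockout-labelled against 90 wild-type RPF reads, with log2 changes of -1.37 (-2.16 to -0.67) and -0.84 (-1.38 to -0.33).

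BRCA2, a mediator that acts on resected DNA, had 96 RNA reads in the knockout-labelled library, against 274 in wild type, and 45 RPF reads, against 91. Its log2 changes were -1.36 (-1.71 to -1.02) and -1.01 (-1.57 to -0.49). BARD1, the partner without which the BRCA1 ubiquitin ligase is unstable, had 92 knockout-labelled against 238 wild-type RNA reads, and 65 knockout-labelled against 106 wild-type RPF reads. The BARD1 changes were -1.22 (-1.58 to -0.87) in RNA and -0.70 (-1.17 to -0.25) in RPF. BRCA1 itself looked different in RNA: it had 186 reads in the knockout-labelled library, against 249 in wild type, a change of -0.27 (-0.55 to 0.01) that was not called. Its RPF reads numbered 76 in the knockout-labelled library, against 132 in wild type, a called change of -0.79 (-1.22 to -0.38). PALB2, which bridges BRCA1 and BRCA2, was called in neither, with 110 knockout-labelled against 132 wild-type RNA reads and 48 knockout-labelled against 42 wild-type RPF reads.

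RAD51C, RAD51D, XRCC2 and XRCC3, related proteins that form small complexes and stabilise the filament, did not share 1 pattern. XRCC2 was called lower in both kinds, with 63 knockout-labelled against 132 wild-type RNA reads and 26 knockout-labelled against 52 wild-type RPF reads. RAD51C was called lower in RNA (85 knockout-labelled against 187 wild-type reads, change -0.98, -1.37 to -0.61) and had 146 knockout-labelled against 199 wild-type RPF reads, a change of -0.45 (-0.77 to -0.13) that is short of 1.5-fold. XRCC3 changed by -0.51 in RNA and by -0.53 in RPF and was called in neither. RAD51D had the highest RNA change of all members, 0.32 (-0.01 to 0.65), with 163 knockout-labelled against 145 wild-type RNA reads. Its RPF reads numbered 41 in the knockout-labelled library, against 27 in wild type, a change of 0.59 (-0.13 to 1.36) whose interval includes no change. Among these relatives only RAD51D had changes above 0, and both of its intervals include no change.

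Among the 5 genes of end resection and junction processing, 3 were called lower in RNA and 3 in RPF. RAD50, the ATPase that tethers broken ends in the MRE11 complex, had 105 RNA reads in the knockout-labelled library, against 194 in wild type, and 66 RPF reads, against 199. Its changes were -0.73 (-1.09 to -0.38) in RNA and -1.59 (-2.02 to -1.18) in RPF. NBN, the subunit of the same complex that recruits ATM, was called in neither, with 170 knockout-labelled against 187 wild-type RNA reads and 120 knockout-labelled against 99 wild-type RPF reads. The intervals of RAD50 and NBN do not overlap in RNA or in RPF. RBBP8 (CtIP), which switches on the nuclease of the complex, had 307 knockout-labelled against 359 wild-type RNA reads and 57 knockout-labelled against 71 wild-type RPF reads, and was called in neither.

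EXO1, the exonuclease of long-range resection that also acts in mismatch repair, had 74 RNA reads in the knockout-labelled library, against 188 in wild type, and 49 RPF reads, against 147. Its changes were -1.19 (-1.60 to -0.80) and -1.58 (-2.08 to -1.11). BLM, a helicase that resects ends and dissolves crossed junctions, had 74 knockout-labelled against 197 wild-type RNA reads, and 63 knockout-labelled against 97 wild-type RPF reads. The BLM change was -1.26 (-1.67 to -0.87) in RNA and -0.62 (-1.10 to -0.15) in RPF. EXO1 and BLM were thus alike in RNA, while the footprint change of EXO1 was the larger.

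**Figure D2:**
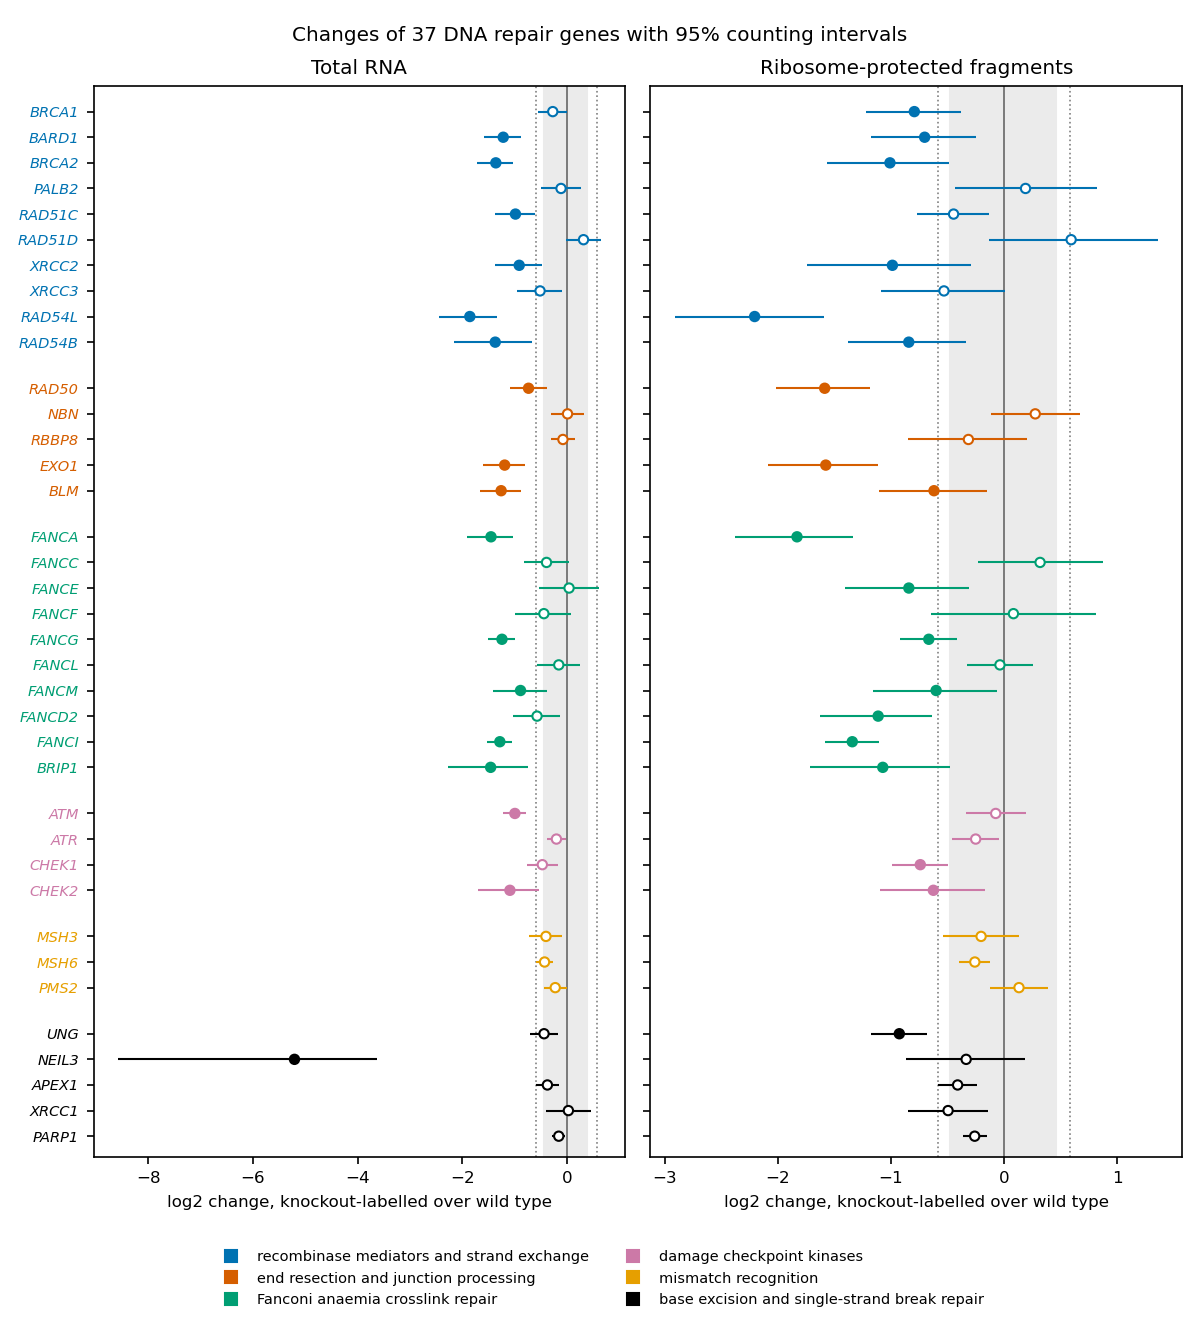
Log2 change of each gene, knockout-labelled over wild type, in total RNA (left panel) and ribosome-protected fragments (right panel), with 95% counting intervals; filled points were called, dotted lines mark 1.5-fold, and the grey band holds the middle 50% of all measured genes. All filled points lie below 0, and the 3 mismatch genes are open in both panels. The x axes of the panels differ because of NEIL3.

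The Fanconi anaemia genes gave 5 of 10 called lower in RNA and 7 of 10 in RPF, with medians of -0.73 and -0.75. FANCA, a subunit of the core ubiquitin ligase complex, had 61 RNA reads in the knockout-labelled library, against 186 in wild type, and 41 RPF reads, against 147. Its changes were -1.45 (-1.90 to -1.03) and -1.83 (-2.38 to -1.33). FANCA shares 696 annotated exon bases with ZNF276 on the other strand, and ZNF276 was also low, with 14 knockout-labelled against 67 wild-type RNA reads. FANCG, which binds FANCA, had 174 knockout-labelled against 457 wild-type RNA reads, and 208 knockout-labelled against 330 wild-type RPF reads, with changes of -1.24 (-1.502 to -0.987) and -0.67 (-0.92 to -0.41). FANCM, the translocase that anchors the complex to DNA, was called lower in both kinds, with changes of -0.88 and -0.60, the RPF value near the limit of the call.

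FANCL, FANCF, FANCC and FANCE, other subunits of the core complex, were not called in RNA, and FANCE was called lower in RPF. FANCL, the catalytic ubiquitin ligase subunit, had 93 RNA reads in the knockout-labelled library, against 115 in wild type, and 199 RPF reads, against 204. FANCF, an adaptor, had 51 knockout-labelled against 77 wild-type RNA reads and 35 knockout-labelled against 33 wild-type RPF reads. FANCC had 79 knockout-labelled against 115 wild-type RNA reads, and 65 knockout-labelled against 52 wild-type RPF reads, with changes of -0.39 (-0.82 to 0.04) and 0.32 (-0.23 to 0.88). FANCE, which with FANCC recruits the substrate, had 51 knockout-labelled against 55 wild-type RNA reads, but 45 knockout-labelled against 81 wild-type RPF reads, a change of -0.84 (-1.41 to -0.31). Of this pair, only the RPF value of FANCE was called.

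FANCI and FANCD2 form the clamp that the core complex ubiquitinates at a crosslink. FANCI was the most deeply counted Fanconi member, with 201 RNA reads in the knockout-labelled library, against 543 in wild type, and 203 RPF reads, against 515. The FANCI changes were nearly equal, -1.28 (-1.52 to -1.05) in RNA and -1.34 (-1.59 to -1.11) in RPF. FANCD2 had 69 knockout-labelled against 114 wild-type RNA reads, a change of -0.57 (-1.03 to -0.13) or 1.48-fold, just short of the call, and 52 knockout-labelled against 113 wild-type RPF reads, a called change of -1.11 (-1.62 to -0.63). BRIP1, a helicase that binds BRCA1, had 21 knockout-labelled against 65 wild-type RNA reads, and 34 knockout-labelled against 72 wild-type RPF reads, with changes of -1.46 (-2.26 to -0.75) and -1.07 (-1.72 to -0.48). FANCI, FANCD2 and BRIP1 all had lower footprint counts in the knockout-labelled library.

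Of the 4 checkpoint kinases, CHEK2 was called lower in both kinds, ATM in RNA, CHEK1 in RPF and ATR in neither. ATM, the kinase activated at double-strand breaks, had 250 RNA reads in the knockout-labelled library, against 553 in wild type, a change of -0.99 (-1.22 to -0.78). Its RPF reads numbered 230 in the knockout-labelled library, against 242 in wild type, a change of -0.07 (-0.34 to 0.19). ATM RNA was thus about as low as that of RAD51C while its footprint counts were close in both genotypes. ATR, the kinase activated at stalled forks, had 426 knockout-labelled against 543 wild-type RNA reads, and 364 knockout-labelled against 433 wild-type RPF reads. CHEK1, the effector kinase of ATR, had 160 knockout-labelled against 246 wild-type RNA reads, a change of -0.47 (-0.77 to -0.18) that was not called, and 216 knockout-labelled against 361 wild-type RPF reads, a called change of -0.74 (-0.99 to -0.49). The RPF change of CHEK1 minus its RNA change was -0.27 (-0.65 to 0.10), an interval that includes no change. CHEK2, the effector of ATM, had 37 knockout-labelled against 88 wild-type RNA reads and 66 knockout-labelled against 102 wild-type RPF reads.

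None of the 3 mismatch members was called in RNA or RPF. MSH6, which recognises base mismatches, had 535 RNA reads in the knockout-labelled library, against 798 in wild type, and 782 RPF reads, against 935. Its changes of -0.43 (-0.59 to -0.27) and -0.26 (-0.40 to -0.12) have narrow intervals that exclude no change and a size under 1.5-fold. MSH3, which recognises larger loops, had 146 knockout-labelled against 214 wild-type RNA reads, and 139 knockout-labelled against 160 wild-type RPF reads. PMS2, an endonuclease that nicks the mismatched strand, had 305 knockout-labelled against 395 wild-type RNA reads, and 261 knockout-labelled against 238 wild-type RPF reads. The lower RNA bound of MSH3 (-0.71) lies past the 1.5-fold limit of -0.58, that of MSH6 (-0.59) close to it and that of PMS2 (-0.44) inside it.

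Of the 5 base excision and single-strand break genes, 1 was called lower in RNA, NEIL3, and 1 in RPF, UNG. PARP1, the break sensor that makes poly(ADP-ribose), had 1039 RNA reads in the knockout-labelled library, against 1284 in wild type, and 1302 RPF reads, against 1558, changes of -0.15 (-0.27 to -0.04) and -0.26 (-0.37 to -0.15). APEX1, the endonuclease that cuts at abasic sites, had 293 knockout-labelled against 421 wild-type RNA reads, and 508 knockout-labelled against 675 wild-type RPF reads. XRCC1, the scaffold of single-strand break repair, had 91 knockout-labelled against 99 wild-type RNA reads and 117 knockout-labelled against 165 wild-type RPF reads. PARP1, APEX1 and XRCC1 were called in neither kind. UNG, the glycosylase that removes uracil, had 187 knockout-labelled against 281 wild-type RNA reads, a change of -0.43 (-0.71 to -0.16) that was not called, and 212 knockout-labelled against 403 wild-type RPF reads, a called change of -0.93 (-1.17 to -0.68).

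NEIL3 stood apart from every other member. NEIL3 is a glycosylase of oxidised bases in single-stranded DNA that also unhooks some interstrand crosslinks, and the counted transcript lies at chr4:177309836-177362943 on the plus strand of GRCh38. It had 2 RNA reads in the knockout-labelled library, against 102 in wild type, which is 0.405 CPM against 18.4 CPM. Its RPF reads numbered 57 in the knockout-labelled library, against 72 in wild type, which is 15.1 CPM in the knockout-labelled library and 19.0 CPM in wild type. NEIL3 RNA was thus nearly absent from the knockout-labelled library while its footprints were not. The RNA change was -5.21 (-8.59 to -3.63), 6th from the lowest of the 10875 measured genes, and the RPF change was -0.34 (-0.87 to 0.18). Among genes with at least 50 wild-type RNA reads and a whole RNA interval below -2, a group chosen after the values were seen, 61 of 69 were measured in RPF. Of those 61, 58 were called lower in RPF, and the 3 that were not are NEIL3, CCDC77 and WDR62. CCDC77 had 94 RPF reads in the knockout-labelled library and 110 in wild type, and WDR62 had 54 in the knockout-labelled library and 79 in wild type. No second library tells whether the 2 NEIL3 reads are a property of the cells or of that library.

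Translational efficiency (TE) is the footprint level relative to the RNA level, and its change is the RPF change minus the RNA change. It was called for 6 members, 4 higher and 2 lower, while over the 9598 genes measured in both kinds 15.7% were called higher, 13.9% lower and 29.6% either way. The members' share is below that of all genes, and their median TE change was 0.17, beside 0.03 over all genes. NEIL3 had the highest TE change of all 9598 genes, 4.87 (2.99 to 6.75), which rests on its 2 RNA reads. ATM followed with 0.92 (0.58 to 1.26), then FANCC with 0.71 (0.04 to 1.37) and BLM with 0.64 (0.04 to 1.23). The intervals of FANCC and BLM come close to 0, so the ATM value is the better measured one. RAD50 with -0.85 (-1.38 to -0.33) and FANCE with -0.88 (-1.64 to -0.13) were called lower. FANCG reached 0.57 (0.22 to 0.93), just under the 1.5-fold limit of 0.58. For 26 of the 37 members the TE interval includes no change. With a call at 2-fold, 0 members were lower in TE and 1, NEIL3, was higher, where 6.28% of all genes were lower and 6.46% higher.

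**Figure D3:**
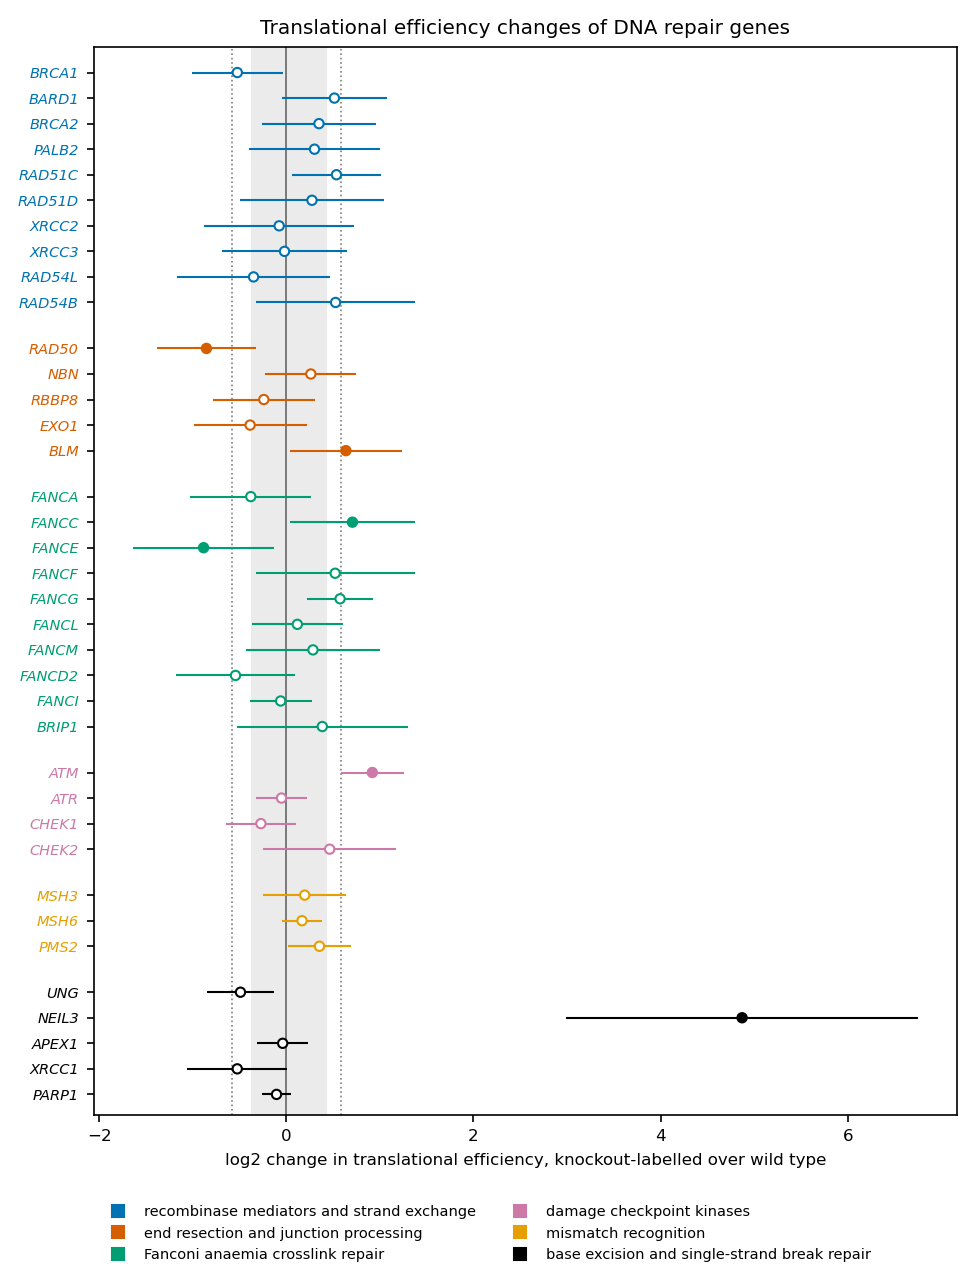
Log2 change in translational efficiency of each gene, knockout-labelled over wild type, with 95% intervals from the read counts of the 4 libraries; filled points were called, dotted lines mark 1.5-fold and the grey band holds the middle 50% of all genes measured in both kinds. NEIL3 lies at 4.87, ATM at 0.92, RAD50 at -0.85 and FANCE at -0.88, and most other intervals cross 0.

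RNA and RPF changes had the same sign for 31 of 37 members (83.8%), of which most lie below 0 in both kinds, and for 67.8% of all genes measured in both. Across the members Pearson's r was 0.353 and Spearman's rho 0.629, and without NEIL3 these were 0.706 and 0.679 over 36 genes. Over all genes measured in both kinds rho was 0.537. These are correlations across genes, which share the same 4 libraries and scaling and are not independent replicates.

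**Figure D4:**
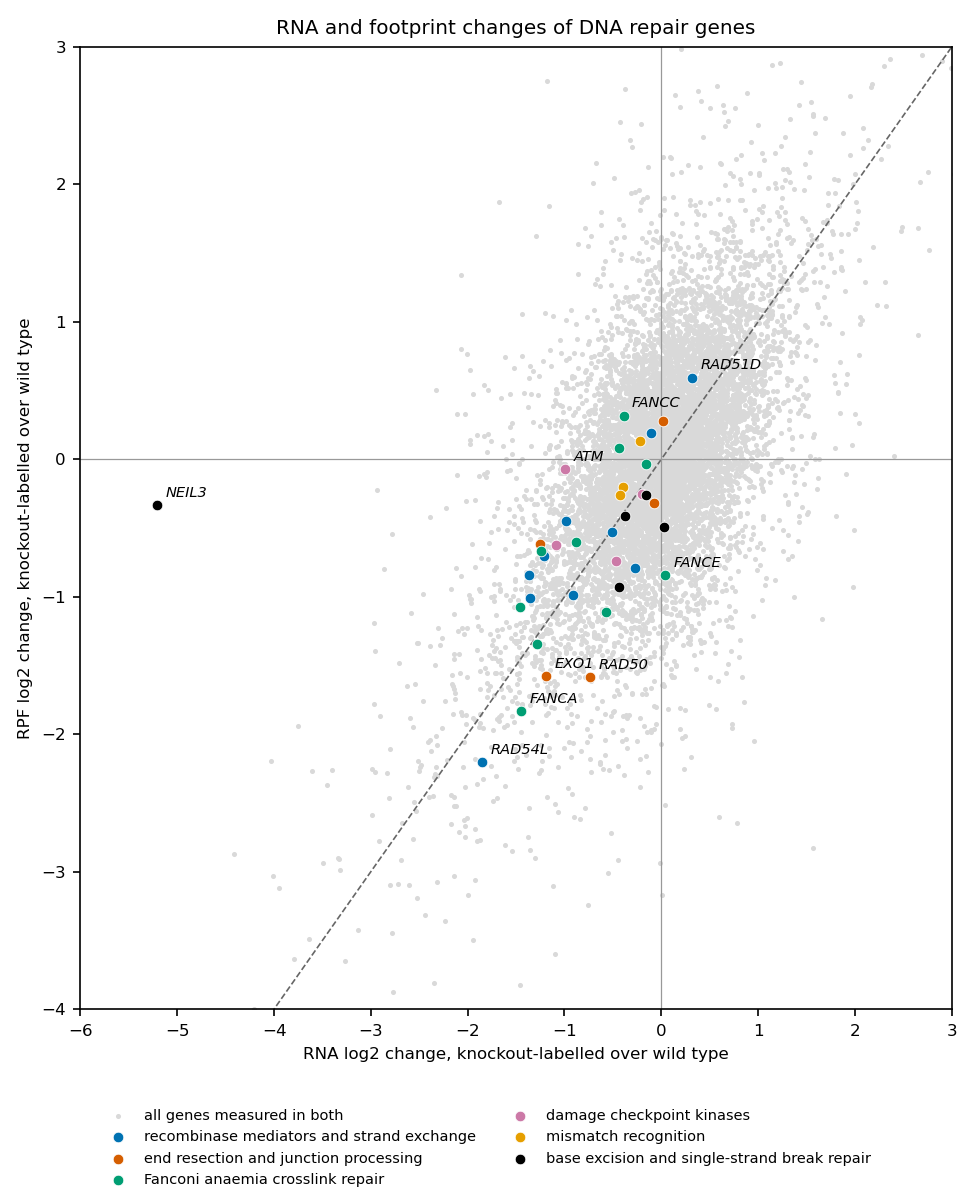
Log2 RPF change against log2 RNA change, knockout-labelled over wild type, for the 37 genes (coloured by role) and for 9540 genes measured in both kinds (grey, with 58 more genes outside the axes); the dashed line marks equal change. Most members lie below 0 on both axes near the line, with NEIL3 far to the left of it.

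Within a genotype the members were translated about like other genes. The log2 ratio of RPF CPM over RNA CPM had a median of 0.16 over the members in the knockout-labelled libraries and 0.20 in wild type, beside 0.13 and 0.11 over all 9598 genes. In those genotypes 21 and 20 of the 37 members lay above the all-gene median. The members ranged from -2.03 (RBBP8) to 4.91 (NEIL3) in the knockout-labelled libraries and from -1.85 (RAD51D) to 1.38 (FANCL) in wild type. These ratios rank genes only, because the region counted for each kind is not known.

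Among repair genes outside the 37, RNA calls were mostly lower in the recombination and checkpoint lists and went both ways in base excision repair. Over 7 lists of other repair genes, 38 of 107 measured genes (35.5%) were called lower and 14 (13.1%) higher in RNA, beside 17.8% and 16.2% of all genes. In RPF, 30 of 102 (29.4%) were called lower and 15 (14.7%) higher, beside 20.1% and 19.0%, and the medians were -0.31 in RNA and -0.28 in RPF. Other recombination genes gave 14 lower and 2 higher of 26 in RNA, and 11 lower and 3 higher of 25 in RPF. DNA2, a resection nuclease, had 28 RNA reads in the knockout-labelled library, against 118 in wild type, and 43 RPF reads, against 96. RAD51AP1, which promotes strand invasion, had 63 knockout-labelled against 177 wild-type RNA reads and 78 knockout-labelled against 294 wild-type RPF reads. MRE11A, the nuclease that works with RAD50 and NBN, was called lower in both kinds, with 157 knockout-labelled against 337 wild-type RNA reads and 121 knockout-labelled against 248 wild-type RPF reads.

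In the other Fanconi and crosslink list, 7 of 15 were called lower and 2 higher in RNA, and 4 of 13 lower and 3 higher in RPF. STRA13 had 58 knockout-labelled against 196 wild-type RNA reads and was not called in RPF. SLX4, a nuclease scaffold, had 21 knockout-labelled against 57 wild-type RNA reads. Its RPF reads, 21 and 28, were too few to be measured. USP1, which removes ubiquitin from FANCD2, was called higher in RNA with 1289 knockout-labelled against 902 wild-type reads. In RPF, FAAP20, ERCC4 and REV1 were called higher, and UBE2T, FAAP100, REV3L and RFWD3 lower.

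Other base excision genes gave 2 lower and 3 higher of 15 in RNA, and 4 lower and 4 higher of 16 in RPF. LIG1, the ligase of replication and of long-patch repair, had 16 RNA reads in the knockout-labelled library, against 200 in wild type, and 57 RPF reads, against 297. LIG3, the ligase that works with XRCC1, was called higher in both kinds, with 379 knockout-labelled against 274 wild-type RNA reads and 274 knockout-labelled against 164 wild-type RPF reads. The replication ligase and the XRCC1 ligase therefore had changes of opposite sign. The glycosylase NEIL2 was called higher in RNA, with 210 knockout-labelled against 93 wild-type reads, and had 42 knockout-labelled against 36 wild-type RPF reads. Other checkpoint genes gave 8 lower and 1 higher of 21 in RNA, and 5 lower and 1 higher of 21 in RPF. Their lower share was 38.1% in RNA, beside 17.8% of all genes. In RPF it was 23.8%, near the 20.1% of all genes. For TE, the RPF change minus the RNA change, 7 of these 21 were called higher and 4 lower, beside 15.7% and 13.9% of all genes. CLSPN, which ATR needs to activate CHEK1, had 35 knockout-labelled against 149 wild-type RNA reads and 84 knockout-labelled against 103 wild-type RPF reads. WEE1, which restrains mitotic entry, had 122 knockout-labelled against 242 wild-type RNA reads and 50 knockout-labelled against 219 wild-type RPF reads.

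**Figure D5:**
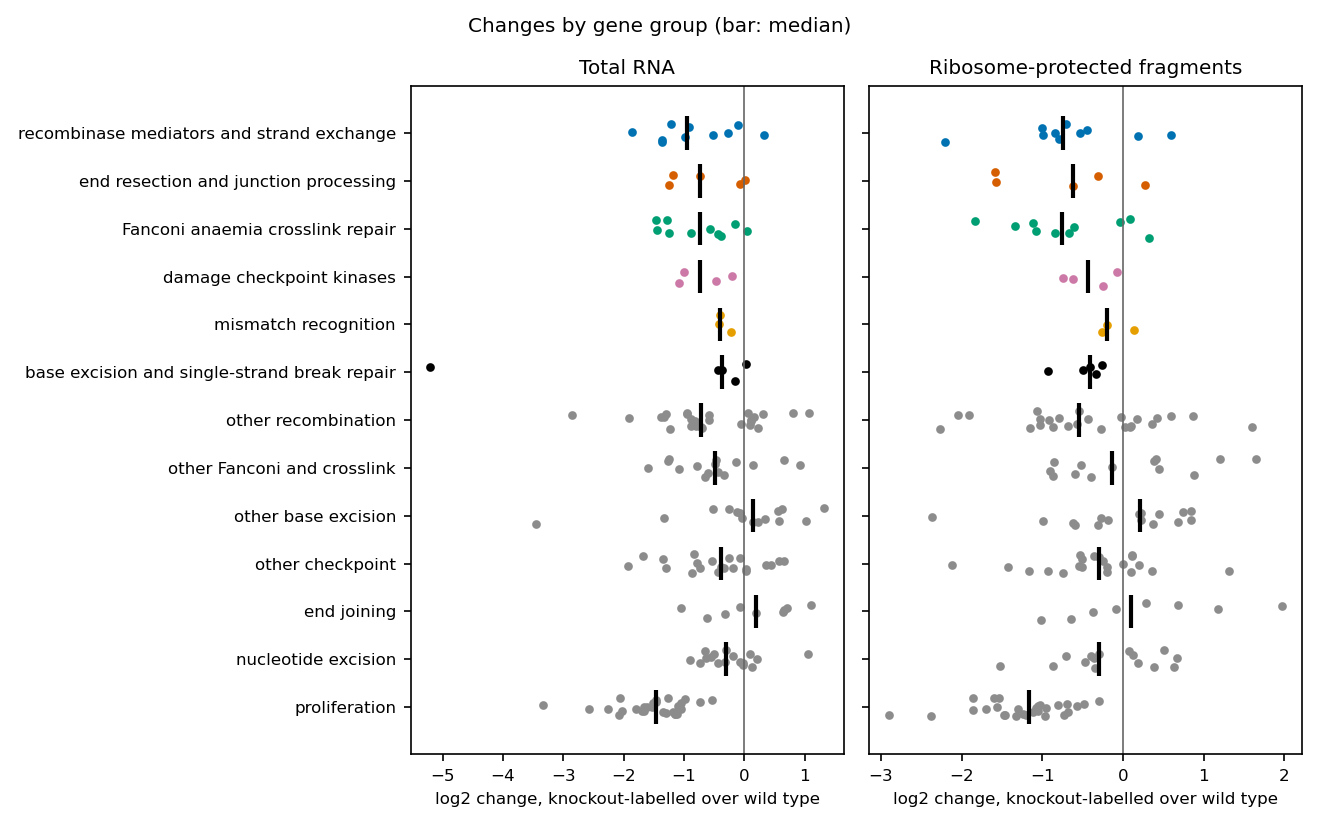
Log2 change of each measured gene, knockout-labelled over wild type, by gene group, in total RNA (left panel) and ribosome-protected fragments (right panel); points are genes, spread vertically for sight, and bars are medians. Members are coloured by role and other lists are grey. Proliferation genes lie furthest below 0, with medians of -1.47 and -1.16, and the mediator group has medians of -0.95 and -0.75.

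Proliferation genes moved with the members. Of 28 such genes, 27 were called lower in RNA and 25 in RPF, with medians of -1.47 and -1.16. Their summed RNA was 1687 CPM in the knockout-labelled library, against 4449 CPM in wild type, and their summed RPF 3475 CPM, against 8140 CPM. Their part in the members' changes was not tested, and in bulk cultures fewer cycling cells and less RNA per cell cannot be told apart.

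Of the 17 members called lower in RNA, 15 had at least 5 measured genes within 2 Mb, and the median RNA change of those neighbours ran from -0.58 to 0.28. NEIL3 had 1 measured neighbour. The lowest neighbourhood was that of BRCA2, where 8 measured genes had a median of -0.58.

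Some members share a start region with a gene on the other strand, and 10 such pairs lay within 1000 bases, a feature looked at after the values were seen. ATM and NPAT, a coactivator of histone genes, have starts 474 bases apart and were both lower in RNA. NPAT had 106 knockout-labelled against 197 wild-type RNA reads, and 160 knockout-labelled against 131 wild-type RPF reads, with a TE change of 1.03 beside 0.92 for ATM.

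The members' transcripts were longer and less GC-rich than most. Their median length was 3958 nt, beside 3035 nt over all genes measured in RNA, and their median GC content 42.5%, beside 49.6%. Members called lower in RNA had medians of 4713 nt and 41.4%, against 3623 nt and 44.7% for the other members. In 7 members annotated exons overlap a gene on the other strand (APEX1, FANCA, FANCD2, FANCL, MSH3, MSH6 and RAD54L), and PMS2, CHEK2, FANCD2 and BRCA1 have near-identical pseudogene copies. Whether counting used strand, and how shared reads were split, is not given in the sources used here, so values of these genes carry that uncertainty.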

How the data were processed

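The authors deposited raw read counts, whole numbers for 1 Ensembl transcript per symbol. Per the labels' protocols, size selection kept footprints between 18 and 34 nt and RNA pieces between 18 and 50 nt, linkers carried random identifiers, ribosomal RNA was removed, and PCR ran for 15 cycles. GRCh38, HISAT2 2.1.0, Bowtie 1.1.2 and cutadapt 1.10 are named in the submitters' processing notes. What was counted per transcript, and how multimapping, strand and identifiers were handled, is not given in the sources used here. Intervals and floors treat each read as an independent molecule and cover counting error only. PCR copies are not independent, so where copies were counted the intervals are too narrow and the floors too low even for that error.

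Totals were 4932388 reads in knockout-labelled RNA, 5551479 in wild-type RNA, 3778316 in knockout-labelled RPF and 3782874 in wild-type RPF, where 3 reads, the limit that a count of 0 allows, correspond to 0.608, 0.540, 0.794 and 0.793 CPM. Libraries of a kind were scaled by TMM in edgeR 4.0.16 (R 4.3.3). RNA and RPF changes carry exact conditional Clopper-Pearson 95% intervals, and TE intervals come from the sum of reciprocal counts. edgeR's quasi-likelihood test has 0 residual degrees of freedom here and was not run. Ratios and intervals were computed with SciPy 1.17.1, pandas 2.3.3 and NumPy 2.4.6 in Python 3.11.15. Coordinates, exons and GC content came from GENCODE release 29, in which 19176 of the transcripts were found, and promoters from RefSeq.

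Titles of the libraries gave the groups. The members, the other lists and the rules were chosen with earlier results of these data known. All members are named. Some genes outside the 37 are not reported here. Members among the first 12 in a direction, ordered by the interval bound nearest to no change, are given with reads, as are further members, and of other lists up to 4 genes per direction, not all of which are named. Alternatives were library totals, DESeq2 1.42.0 size factors, other read minimums, another prior count, other call rules and, added after the values were seen, leaving out NEIL3.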

Additional observations from a re-analysis of the deposited data

How the results depend on the processing

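No member changed direction under any alternative run, but few of the runs could have changed it. Read minimums and call rules leave a ratio's sign as it is, and the other scalings moved the ratios little. Scaling by library totals or DESeq2 size factors moved the members' median RNA change to -0.49 and -0.52 and left each member's call as it was, except that FANCG was called higher in TE (0.59) with DESeq2 size factors. With a minimum of 200 reads, 10 of 24 members were lower in RNA and 6 of 17 lower in RPF. Of 16 members measured in TE, 1 was lower and 1 higher. Shares of all genes called at a minimum of 200 reads are not given here. The all-gene shares above are for the lower main minimum, so no excess over all genes is drawn from any count at 200 reads. With a 2-fold call, 8 members were lower in RPF, and in TE 0 were lower and 1, NEIL3, was higher. Without the interval, 1 member, RAD51D, was higher in RPF. Of the repair genes outside the 37, a minimum of 200 reads gave 21 lower and 9 higher of 68 in RNA, 18 lower and 5 higher of 54 in RPF, and 5 lower and 10 higher of 51 in TE. A 2-fold call gave 17 lower and 6 higher in RNA and 13 lower and 6 higher in RPF. Fewer genes are measured or can pass under these settings by their construction. Without NEIL3, 16 of 36 members were lower in RNA and 19 in RPF, and the TE calls were 2 lower and 3 higher.

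No paired analysis was possible because each group has 1 library, and leaving out a replicate has no meaning there. The RPF interval of RAD51D, from 41 and 27 reads, runs from -0.13 to 1.36, and differences of 1.5-fold were not detectable at such depth.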

Other observations

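Other repair pathways that do not copy a sister chromatid showed mixed values. In end joining, 2 of 9 genes were called lower and 4 higher in RNA, and 2 of 8 lower and 2 higher in RPF. PRKDC, the catalytic subunit of the DNA-dependent kinase, had 1476 RNA reads in the knockout-labelled library, against 3389 in wild type, and 1481 RPF reads, against 3004, changes of -1.05 (-1.14 to -0.96) and -1.02 (-1.11 to -0.93). XRCC5 (Ku80), its DNA-binding partner, was called lower in both kinds with changes of -0.61 and -0.64. POLM, a gap-filling polymerase, was called higher in both, with 213 knockout-labelled against 110 wild-type RNA reads and 320 knockout-labelled against 81 wild-type RPF reads. The end-joining genes thus included both directions among well-counted members. In nucleotide excision repair, 4 of 17 genes were called lower and 1 higher in RNA, and 3 of 15 lower and 2 higher in RPF. ERCC2, a helicase of the repair factor TFIIH, had 85 RPF reads in the knockout-labelled library against 245 in wild type, with 90 RNA reads against 125.

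Of the 10 epithelial genes, 3 were called lower and 3 higher in RNA, and 1 lower and 4 higher in RPF. ELF3, an epithelial transcription factor, was called lower in both kinds, with changes of -0.84 and -0.65. CDH1, the adhesion protein E-cadherin, was called higher in both, with changes of 1.93 and 1.64. CLDN7, a tight-junction gene, had 1932 knockout-labelled against 484 wild-type RPF reads and 919 knockout-labelled against 647 wild-type RNA reads.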
